A study of Mus musculus with 19 samples.

Results

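The cerebellum of wild-type (WT) mice was compared with the prefrontal cortex of WT mice in every gene of the raw count table, to describe what sets the transcriptomes of these 2 brain regions apart before any mutation is introduced. The comparison used 6 of the 19 libraries of the series, chosen by their labels alone: 3 cerebellum and 3 prefrontal cortex libraries from C57BL/6 mice that were 3 months old and carried the normal *Tbp* gene. The other 13 libraries are 3 of WT striatum and 10 of the same 3 regions from *Tbp*-105Q knock-in (KI) mice, whose germline *Tbp* gene carries an expanded glutamine repeat. They entered the fit with the 6, where they add to the estimate of the spread and to the genes kept for testing (15569 genes with the 6 libraries alone). The WT striatum is also given as a level beside them, and the KI libraries as other samples of the regions and in a test of the difference between genotypes. Tissue was dissected in bulk, so that fewer cells of a type and less RNA per cell cannot be told apart. The labels number the libraries within each region but do not tie a number to a mouse. Adjusted p-values set a difference of means against the spread between libraries, estimated over all 19. By counts of the X-inactivation transcript and of Y-linked genes, each region had 2 female libraries and 1 male one, the male one being number 3 in the cerebellum and number 1 in the prefrontal cortex.

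The cerebellum is built of a few neuron types in a fixed layout. Granule cells, the most numerous neurons of the brain, send parallel fibres to Purkinje cells, which are inhibitory and form the output of the cerebellar cortex, while Golgi, basket and stellate cells provide local inhibition and Bergmann glia ensheath Purkinje cell synapses. The prefrontal cortex consists of layered excitatory pyramidal neurons and inhibitory interneurons that arise from the ventral forebrain. The regions descend from different parts of the neural tube, the hindbrain and the telencephalon, and their transcription factors, receptors and channels are known to keep much of that ancestry in the adult.

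Each library held between 11975768 and 15296355 counts, and between 20088 and 21487 genes had at least 1 count. Expression is given below as CPM, the count of a gene scaled to the depth and composition of its library, per library in the order of the labels' numbers. A log2 fold change is always cerebellum minus prefrontal cortex. A gene was called at an adjusted p under 0.05 in edgeR's quasi-likelihood test. It was called over 2-fold where the same fit rejected every fold below 2. The labels and the markers matched. *Gabra6*, *Pcp2* and *Car8*, which define granule and Purkinje cells, were high in all 3 cerebellum libraries. *Tbr1* and *Neurod6*, which define pyramidal neurons, were high in all 3 prefrontal cortex libraries.

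Promoters of 4 genes that mark the regions and lie at the ends of the comparison are printed first. Each gene was searched for a motif chosen for it, and its first window with that motif is printed. Each match was therefore fixed by the choice. The windows are the 250 bases before the RefSeq start (GRCm38.p6), 5′ to 3′ on the strand of the gene, with the searched letters in capitals. That of *Cbln3* overlaps the GENCODE span of the gene, which ends at 55884392. *Gabra6*, the GABA-A receptor subunit of granule cells (chr11:42321073-42321322, minus strand), and *Cbln3*, a granule cell secreted protein (chr14:55884257-55884506, minus strand), each hold TTGGCA, the core letters of a nuclear factor I site, here read as TGCCAA on the gene's own strand. *Pcp2*, a Purkinje cell protein (chr8:3625548-3625797, minus strand), holds AGGTCA, the core letters bound by ROR receptors, 12 bases before the start. *Vip*, an interneuron neuropeptide (chr10:5638968-5639217, plus strand), holds TATAAA, the letters of a TATA box, 3 times, the nearest 30 bases before the start.
Gabra6: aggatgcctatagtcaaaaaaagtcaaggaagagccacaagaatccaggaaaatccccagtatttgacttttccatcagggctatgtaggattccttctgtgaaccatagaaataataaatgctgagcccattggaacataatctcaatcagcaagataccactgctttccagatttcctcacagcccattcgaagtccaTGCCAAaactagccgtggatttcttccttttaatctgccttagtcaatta
Cbln3: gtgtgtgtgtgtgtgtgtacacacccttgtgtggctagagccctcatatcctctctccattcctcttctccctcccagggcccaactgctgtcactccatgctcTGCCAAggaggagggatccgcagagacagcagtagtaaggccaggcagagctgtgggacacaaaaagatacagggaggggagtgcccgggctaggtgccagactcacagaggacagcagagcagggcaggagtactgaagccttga
Pcp2: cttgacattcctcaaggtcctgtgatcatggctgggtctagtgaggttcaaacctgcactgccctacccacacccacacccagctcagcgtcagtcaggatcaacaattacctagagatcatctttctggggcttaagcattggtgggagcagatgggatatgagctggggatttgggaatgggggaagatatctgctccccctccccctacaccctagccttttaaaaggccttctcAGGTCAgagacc
Vip: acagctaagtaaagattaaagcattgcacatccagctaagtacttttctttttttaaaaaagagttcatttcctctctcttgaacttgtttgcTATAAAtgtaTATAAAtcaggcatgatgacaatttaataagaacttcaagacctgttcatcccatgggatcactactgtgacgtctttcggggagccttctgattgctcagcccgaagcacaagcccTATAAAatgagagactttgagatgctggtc

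Over all 14927 such windows of 11648 tested protein-coding genes, TTGGCA on either strand was found in 10.1%, AGGTCA in 11.0%, TATAAA in 6.81% and GGGCGG, the letters of an SP factor site, in 54.9%. In windows of genes called over 2-fold higher in the cerebellum the shares were 13.8%, 14.6%, 8.07% and 48.7%, and in those of genes called over 2-fold lower they were 9.81%, 10.9%, 9.73% and 48.7%. Matches of different motifs may overlap and were counted each. Windows rich in CpG, with an observed to expected ratio over 0.6, made up 62.2% of those of genes not called over 2-fold, 44.1% of the higher and 41.6% of the lower genes. These shares describe letters in a window, several windows can belong to 1 gene, and binding was not measured.

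Of the 6 libraries, 2 stood apart in markers of neighbouring tissue. The cerebellum library 1 held choroid plexus transcripts: the 13 markers of that epithelium summed to 4254, 285 and 263 CPM in the cerebellum libraries and 414, 721 and 444 CPM in the prefrontal cortex libraries. *Ttr*, its thyroid hormone carrier, stood at 1818, 12.3 and 4.12 CPM in the cerebellum (-0.63, adjusted p = 0.83 without library 1). The prefrontal cortex library 3 held olfactory bulb transcripts: *Th*, of dopaminergic neurons, stood at 3.56, 5.50 and 171 CPM, with a log2 fold change of -2.17 that became 1.55, adjusted p = 0.024 without that library. *Cdhr1*, of mitral cells, stood at 9.38, 13.8 and 158 CPM in the prefrontal cortex. The same library had more of the striatal markers, with sums of 788, 762 and 1597 CPM, and less of the cortical excitatory markers, with sums of 8177, 7813 and 5432 CPM. Oligodendrocyte markers also varied between prefrontal cortex libraries, from 4966 to 13434 CPM, and were highest in library 2. With the cerebellum library 1 and the prefrontal cortex library 3 both left out, a fit chosen after these values were seen, 3717 genes were called higher in the cerebellum and 4022 lower. Values without them are given below where a call rests on either library.

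**Figure D1:**
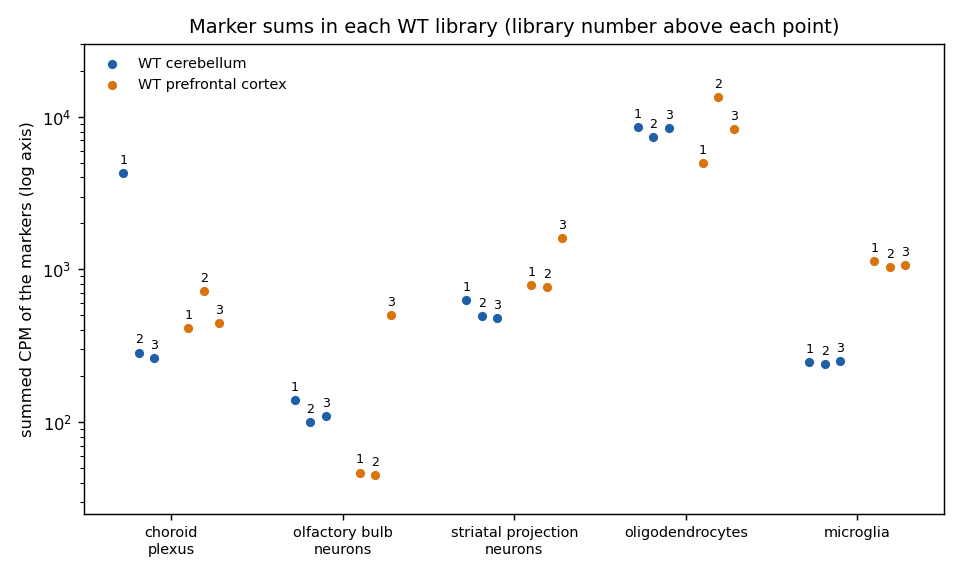
Summed CPM of the marker lists of 5 tissues or cell types in each of the 6 WT libraries, on a log axis, with cerebellum libraries in blue and prefrontal cortex libraries in orange and library numbers beside the points. Choroid plexus markers stand apart in cerebellum library 1 (4254 CPM) and olfactory bulb markers in prefrontal cortex library 3 (501 CPM), while microglial markers separate the regions with no overlap.

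Of 16841 genes tested, 4224 (25.1%) were called higher and 4528 (26.9%) lower in the cerebellum, 52% in all. These shares of all tested genes are the ones to set beside the counts of each gene list below. The over 2-fold test called 836 genes higher (4.96%) and 1578 lower (9.37%), 14.3% in all. Large differences were more often towards the prefrontal cortex. Among called genes, by the ratio of mean CPM, 239 were at least 10-fold higher and 666 at least 10-fold lower. Of these, 61 against 181 were at least 100-fold apart. Called genes with no counts in the lower region were counted at each step. The 836 genes made up between 7.69% and 8.32% of all counts in the cerebellum and at most 1.75% in the prefrontal cortex. The 1578 genes made up between 2.45% and 2.56% against between 10.9% and 11.9%. The first principal component of the 6 libraries separated the regions and held 83.1% of the variance. The 3 libraries of one region lay wholly above or below those of the other in 59.1% of the genes tested, 29.6% with the cerebellum above and 29.5% below. They did so in every called gene named in the following paragraphs except *En1*.

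**Figure D2:**
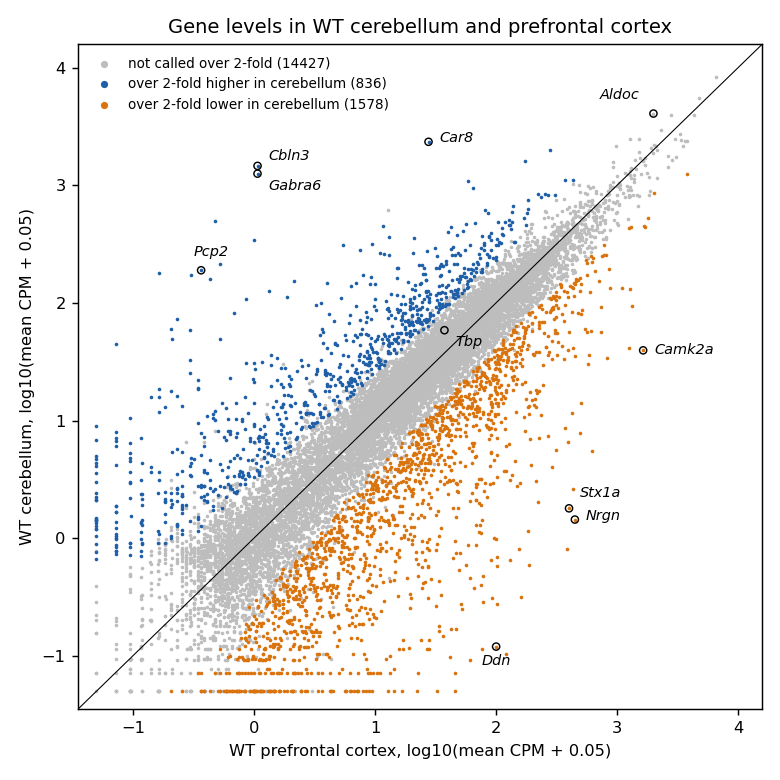
Mean CPM of each of the 16841 tested genes in WT prefrontal cortex (x axis) and WT cerebellum (y axis), both as log10(CPM + 0.05), with the 836 genes called over 2-fold higher in the cerebellum in blue, the 1578 called over 2-fold lower in orange and the rest in grey. *Gabra6*, *Cbln3* and *Pcp2* lie far above the diagonal of equal level, *Nrgn*, *Stx1a* and *Ddn* far below it, and genes at 0 counts in 1 region form the rows along the left and bottom edges.

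The protein-coding genes with the largest difference towards the cerebellum, among those of at least 50 CPM, included well-known granule and Purkinje cell genes. *Cbln3*, at chr14:55878913-55884392 (GRCm38) on the minus strand and encoding a C1q-like protein that granule cells secrete together with CBLN1, had 1248, 1526 and 1603 CPM in the cerebellum and 1.58, 0.814 and 0.674 CPM in the prefrontal cortex (log2 fold change 10.47, SE 0.42, adjusted p = 4.6e-12). *Gabra6* had 1264, 1198 and 1298 CPM in the cerebellum and 1.37, 1.02 and 0.674 CPM in the prefrontal cortex (log2 fold change 10.25, SE 0.30, adjusted p = 1.9e-13). The ratios of mean CPM of these genes were 1429 and 1228. *Fat2*, a giant cadherin of parallel fibres, had 130.3, 208 and 182 CPM in the cerebellum and 0.342, 0.204 and 0.202 CPM in the prefrontal cortex. The Purkinje cell genes in this group were *Pcp2*, a G protein modulator with 169, 219.6 and 179 CPM in the cerebellum and at most 0.472 CPM in the prefrontal cortex, and *Ppp1r17*, a phosphatase inhibitor with 314, 352 and 370.3 CPM against at most 1.48 CPM. *Car8*, which binds the IP3 receptor, had 2188, 2563 and 2262 CPM in the cerebellum and 27.0, 29.2 and 26.6 CPM in the prefrontal cortex (log2 fold change 6.40, SE 0.23, adjusted p = 1.2e-12).

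The rest of this set held transcription factors, receptors and enzymes. *En2* and *Lhx1*, homeobox genes of the midbrain and hindbrain, had log2 fold changes of 8.67 and 8.57. *Crtam*, an immunoglobulin-family adhesion molecule first described in T cells, had the largest fitted difference, with 191, 185 and 158 CPM in the cerebellum and 0.137, 0.136 and 0.0674 CPM in the prefrontal cortex (log2 fold change 10.52, SE 0.35, adjusted p = 7.4e-13). *Cnpy1*, the next gene to *En2* on chromosome 5, had 507, 503 and 484 CPM in the cerebellum against at most 0.616 CPM. *Dao*, the D-amino acid oxidase that breaks down D-serine, had 63.3, 57.8 and 59.7 CPM against at most 0.202 CPM. The set also held *Il20rb*, a cytokine receptor subunit, *Bcl2l15*, a BCL2 relative, *Arhgef33*, a guanine nucleotide exchange factor, and *Mybpc3*, known as a cardiac myosin-binding protein, with log2 fold changes of 8.80, 7.04, 6.61 and 6.99. *Mybpc3* varied more between libraries, at 42.6, 108 and 94.2 CPM in the cerebellum.

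Towards the prefrontal cortex, the largest differences were in genes of pyramidal neurons and interneurons. *Nrgn*, neurogranin, which binds calmodulin in dendrites, had 1.22, 1.57 and 1.37 CPM in the cerebellum and 489.9, 572 and 281 CPM in the prefrontal cortex (log2 fold change -8.32, SE 0.75, adjusted p = 8.0e-08). *Ddn*, dendrin, a postsynaptic protein, had 3 counts in all 3 cerebellum libraries together and 117, 84.3 and 99.1 CPM in the prefrontal cortex, a ratio of 1439.5-fold (95% exact counting interval 492 to 6983). *Lhx2*, a LIM homeobox gene needed for cortical fate, had 2 counts in the cerebellum and 68.2, 65.0 and 48.0 CPM in the prefrontal cortex, a ratio of 1303-fold (95% exact counting interval 360.4 to 10765). *Chrm1*, the M1 muscarinic acetylcholine receptor, *Kcnv1*, a silent potassium channel subunit, and *Stx1a*, a syntaxin of the synaptic vesicle fusion machinery, had log2 fold changes of -8.38, -9.14 and -7.83. *Stx1a* had 2.89, 0.721 and 1.62 CPM in the cerebellum and 462, 424 and 314 CPM in the prefrontal cortex. The interneuron genes *Vip* and *Lamp5* had 117, 106 and 81.7 CPM and 339, 563 and 247 CPM in the prefrontal cortex and at most 0.321 and 1.29 CPM in the cerebellum.

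The remaining genes of that set spanned signalling and transcription. *Tbr1*, a T-box factor of deep-layer neurons, had 149, 150.1 and 93.6 CPM in the prefrontal cortex and at most 0.900 CPM in the cerebellum. *Rgs14*, a regulator of G protein signalling, *Rasl10a*, a small GTPase, *Crym*, a thyroid hormone binding protein, and *Cpne7*, a copine, had log2 fold changes of -8.45, -7.93, -8.34 and -7.75. *Cbln2*, the forebrain relative of *Cbln1* and *Cbln3*, had 3 counts in the cerebellum, a ratio of 1101-fold (95% exact counting interval 377 to 5343). *Gm11549*, a predicted gene at chr3:36515057-36521813 (GRCm38), had 2 counts in the cerebellum and 144, 143 and 73.0 CPM in the prefrontal cortex, a ratio of 2585-fold (95% exact counting interval 715 to 21351). In 11 of these 15 genes the prefrontal cortex library 3, the one with fewer cortical excitatory transcripts, was the lowest of the 3.

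Of 22 granule cell genes tested, 20 were called higher in the cerebellum, 1 lower and 1 not. Their median log2 fold change was 3.72 against 0.00 over all tested genes. Their CPM summed to 6727, 7402 and 7523 in the cerebellum and 749.7, 833 and 808 in the prefrontal cortex. *Neurod1*, a proneural factor kept by mature granule cells, had 392, 443 and 506 CPM in the cerebellum and 16.6, 9.09 and 9.37 CPM in the prefrontal cortex. *Chn2*, a Rac GTPase-activating protein, *Grm4*, a presynaptic glutamate receptor of parallel fibres, and *Etv1*, an ETS factor, had log2 fold changes of 4.22, 3.23 and 2.27. *Barhl1*, a homeobox gene of the granule lineage, had 0 counts in all prefrontal cortex libraries and 4.43, 4.52 and 5.98 CPM in the cerebellum, at least 72.3-fold higher against a floor of 3 counts over the group. The member that went the other way was *Slc6a7*, a proline transporter, with 12.4, 12.9 and 12.6 CPM in the cerebellum and 73.8, 52.5 and 59.6 CPM in the prefrontal cortex (log2 fold change -2.29, SE 0.29, adjusted p = 5.3e-06). *Nfix* had the smallest called difference (log2 fold change 0.59, SE 0.19, adjusted p = 0.015) and was not called without the prefrontal cortex library 1 (0.49, adjusted p = 0.071) or 3 (0.48, adjusted p = 0.069). *Rims1*, an active zone protein, was called only without the prefrontal cortex library 2 (0.51, adjusted p = 0.027).

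Of 30 Purkinje cell genes, 29 were called higher and 1 not, with a median of 2.70. *Calb1*, the calcium buffer calbindin, had 1983, 1904 and 2076 CPM in the cerebellum and 351, 284 and 204 CPM in the prefrontal cortex (log2 fold change 2.83, SE 0.22, adjusted p = 1.5e-08). *Itpr1*, the IP3 receptor, *Slc1a6*, a glutamate transporter of Purkinje spines, and *Rgs8*, a G protein regulator, had log2 fold changes of 1.94, 5.05 and 3.87. *Aldoc*, the glycolytic enzyme that marks zebrin stripes and is also made by astrocytes, differed less, with 4324, 3996 and 3865 CPM in the cerebellum and 1884, 2217 and 1881 CPM in the prefrontal cortex (log2 fold change 1.03, SE 0.12, adjusted p = 2.1e-06). *Pcp4* (log2 fold change 1.06, SE 0.21, adjusted p = 4.2e-04) was also expressed in the prefrontal cortex. *Foxp2* was not called, with 12.7, 15.5 and 13.3 CPM in the cerebellum and 14.3, 17.4 and 30.5 CPM in the prefrontal cortex.

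Genes of the smaller cerebellar populations were mostly higher too. Of 13 markers of cerebellar interneurons, Golgi cells and unipolar brush cells, 10 were called higher and 2 lower, with a median of 3.38. *Kit*, a receptor tyrosine kinase of molecular layer interneurons, had 249.8, 307 and 289 CPM in the cerebellum and 62.3, 53.5 and 51.4 CPM in the prefrontal cortex. *Slc6a5*, the glycine transporter of Golgi cells, had 9.25, 7.08 and 7.60 CPM in the cerebellum and 1 count in the prefrontal cortex, a ratio of 354-fold (95% exact counting interval 63.1 to 14021). *Grm2* (log2 fold change -1.20, SE 0.38, adjusted p = 0.014), a glutamate receptor of Golgi cells that cortical neurons also make, and *Sorcs3* (log2 fold change -0.83, SE 0.31, adjusted p = 0.032) were lower. *Sorcs3* was not called without the prefrontal cortex library 1 (-0.58, adjusted p = 0.17) or any 1 cerebellum library (-0.81, adjusted p = 0.077 for library 1, -0.80, adjusted p = 0.083 for library 2, -0.89, adjusted p = 0.057 for library 3). *Grm2* was not called when the cerebellum library 1 and the prefrontal cortex library 3 were both left out (-1.11, adjusted p = 0.078). *Eomes*, of unipolar brush cells and also of olfactory bulb neurons, was not called, at 39.6, 10.5 and 16.4 CPM in the cerebellum and 0, 0.407 and 30.0 CPM in the prefrontal cortex. It was called without the prefrontal cortex library 3 (6.70, adjusted p = 1.0e-05). *Lmx1a* had 0 counts in the prefrontal cortex and 2.57, 0.524 and 0.324 CPM in the cerebellum, at least 17.7-fold higher. It was not called without the cerebellum library 1, which held choroid plexus markers (adjusted p = 0.053).

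Of 12 Bergmann glia genes, 10 were called higher, 1 lower and 1 not, with a median of 1.79. *Gdf10*, a growth factor that marks these cells, had 225, 268 and 284 CPM in the cerebellum and 12.9, 8.96 and 13.5 CPM in the prefrontal cortex (log2 fold change 4.45, SE 0.22, adjusted p = 6.0e-11). *Slc1a3*, the glutamate transporter GLAST, had 2013, 2151 and 2269 CPM in the cerebellum and 913, 880.0 and 1163 CPM in the prefrontal cortex (log2 fold change 1.12, SE 0.12, adjusted p = 8.5e-07). *Gria4* and *Hopx* had log2 fold changes of 1.83 and 2.18. *Npy1r*, a neuropeptide Y receptor, was lower in the cerebellum (log2 fold change -4.32, SE 0.35, adjusted p = 2.6e-08). *Fabp7* was not called and had 31.7, 62.0 and 68.7 CPM in the cerebellum and 43.3, 26.8 and 212 CPM in the prefrontal cortex. Its direction turned without the prefrontal cortex library 3 (0.63, adjusted p = 0.15), and it was called lower without library 2 (-1.24, adjusted p = 0.040).

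**Figure D3:**
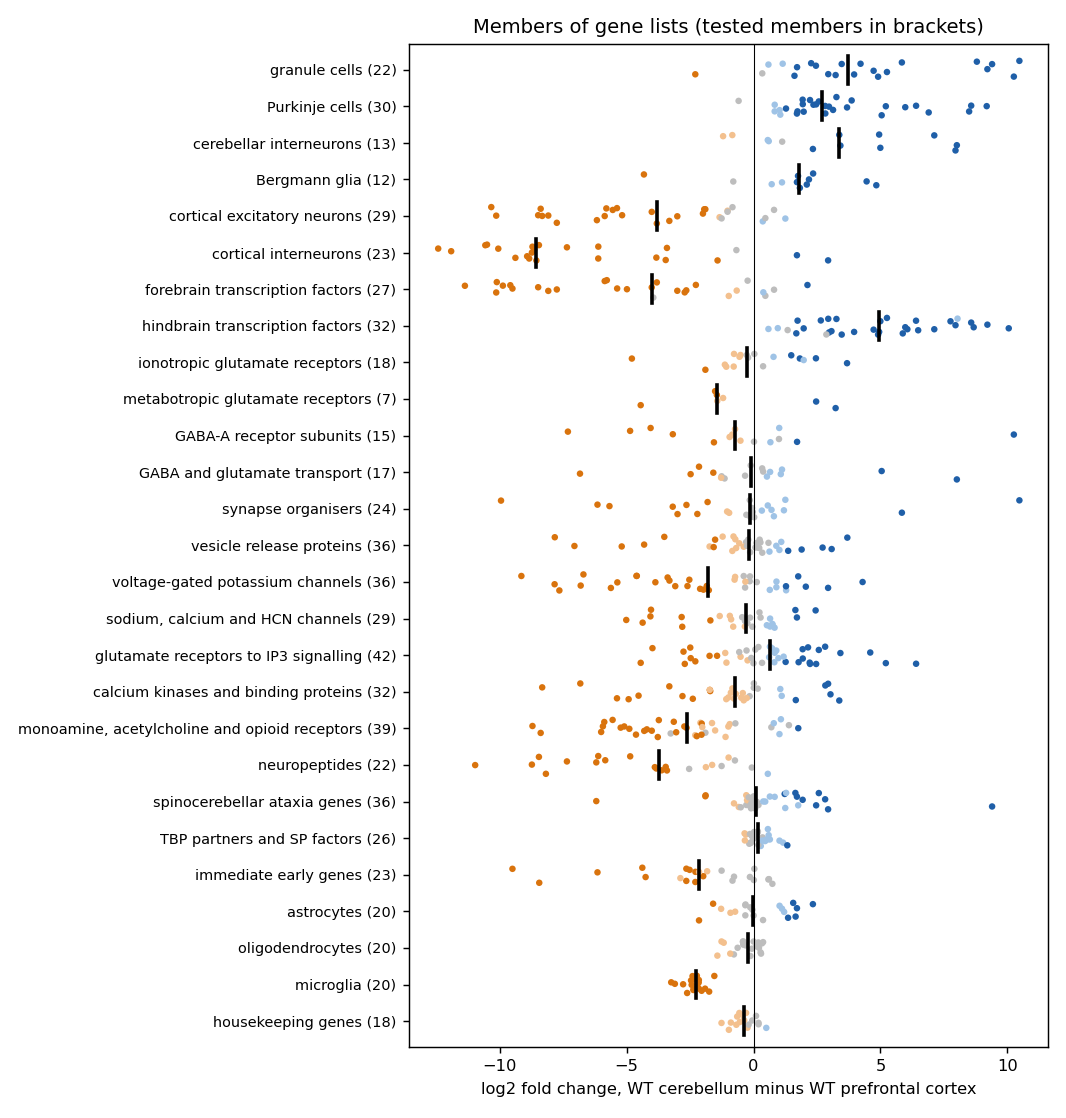
Log2 fold change (cerebellum minus prefrontal cortex) of every tested member of 27 gene lists, 1 list a row, with members called over 2-fold in blue (higher) or orange (lower), other called members in pale colours, members not called in grey and a black bar at the median. Cerebellar cell type lists and hindbrain factors lie to the right, cortical lists, neuropeptides and microglia to the left, and receptor and channel lists spread to both sides.

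In the prefrontal cortex, 22 of 29 genes of cortical excitatory neurons were called higher there than in the cerebellum, 2 were called the other way and 5 were not called, with a median of -3.81. *Camk2a*, the alpha subunit of calcium/calmodulin kinase II, had 42.9, 38.8 and 36.6 CPM in the cerebellum and 1883, 1932 and 1104 CPM in the prefrontal cortex (log2 fold change -5.38, SE 0.25, adjusted p = 3.3e-11). The deep layer factors *Fezf2* and *Bcl11b* had 39.2, 41.5 and 27.9 CPM and 68.5, 55.6 and 95.3 CPM in the prefrontal cortex. In the cerebellum they reached at most 0.162 and 1.44 CPM. *Emx1* had 0 counts in the cerebellum, and its 11.0, 10.9 and 6.47 CPM in the prefrontal cortex were at least 136-fold higher. *Cux1* (log2 fold change 0.37, SE 0.11, adjusted p = 0.010) and *Nptx1*, a secreted pentraxin (log2 fold change 1.25, SE 0.28, adjusted p = 0.0011), were higher in the cerebellum, and *Cux1* was not called without the cerebellum library 1 (0.30, adjusted p = 0.051).

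Some of the 5 excitatory neuron genes that were not called are known from granule cells too. Whether this bears on the missing calls was not tested. *Neurod2* had 109, 107 and 116 CPM in the cerebellum and 68.4, 74.4 and 46.8 CPM in the prefrontal cortex. The groups did not overlap, and *Neurod2* was not called. *Slc17a7*, the vesicular glutamate transporter of both pyramidal and granule cells, had 458, 558 and 542 CPM in the cerebellum and 1551, 1213 and 958 CPM in the prefrontal cortex, with no overlap between the groups, and was not called either (log2 fold change -1.26, SE 0.62, adjusted p = 0.10). *Nr4a2* and *Rtn4r* were not called, with log2 fold changes of -0.83 and -1.02, and *Bhlhe22* was called only without the prefrontal cortex library 1 (0.83, adjusted p = 0.043).

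Of 23 cortical interneuron genes, 20 were called lower in the cerebellum, 2 higher and 1 not. The median was -8.55, or -7.01 with the 6 members at 0 counts in the cerebellum set at their bound. *Sst*, somatostatin, had 2.06, 0.655 and 0.566 CPM in the cerebellum and 215, 181 and 159 CPM in the prefrontal cortex (log2 fold change -7.35, SE 0.70, adjusted p = 1.7e-07). *Crhbp*, which binds corticotropin-releasing hormone, had a log2 fold change of -8.55. *Dlx2*, *Dlx5* and *Dlx6*, homeobox genes of the ventral forebrain, and the noncoding *Dlx6os1* had 0 counts in every cerebellum library. They were at least 183-fold, 129-fold, 48.2-fold and 664-fold higher in the prefrontal cortex. *Dlx1* had 23.1, 26.5 and 86.9 CPM against 1 count, a ratio of 1972-fold (95% exact counting interval 353 to 77912). These homeobox genes were highest in the library with olfactory bulb markers, and *Sp8* (0.822, 1.15 and 14.8 CPM against 0 counts, at least 80.8-fold higher) rested mainly on it. Because the libraries were not made by strand, reads of *Dlx6* and of the overlapping antisense *Dlx6os1* cannot be told apart. *Lhx6*, of interneurons from the medial ganglionic eminence, did not follow that library, with 28.4, 24.8 and 19.8 CPM (log2 fold change -6.11, SE 0.55, adjusted p = 7.4e-08). *Maf* (log2 fold change 1.71, SE 0.19, adjusted p = 9.7e-07) and *Calb2*, calretinin, (log2 fold change 2.94, SE 0.73, adjusted p = 0.0029) were higher in the cerebellum, where granule cells also make calretinin. *Calb2* had 366, 766 and 722 CPM in the cerebellum and 18.6, 17.2 and 206 CPM in the prefrontal cortex. Its difference was larger without the prefrontal cortex library 3 (5.11, adjusted p = 1.4e-06).

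The homeobox and other transcription factors that pattern the brain were listed by the region they are known from. These lists, chosen with earlier results of these data known, share members with the cell type lists above, such as *Zic1*, *Rora*, *Tbr1* and *Emx1*. Their split by region is therefore not a separate result. Of 32 hindbrain and cerebellar factors tested, 30 were called higher in the cerebellum and none lower (27 over 2-fold), with a median of 4.93, or 4.82 with the 5 members at 0 counts in the prefrontal cortex set at their bound. *En2* had 164, 155 and 162 CPM in the cerebellum and 0.205, 0.543 and 0.404 CPM in the prefrontal cortex (log2 fold change 8.67, SE 0.27, adjusted p = 4.4e-13). The zinc finger factors *Zic1*, *Zic2*, *Zic4* and *Zic5* had log2 fold changes of 4.91, 4.73, 3.47 and 3.96. *Pax3* had 8.29, 9.63 and 8.82 CPM in the cerebellum and 0 counts in the prefrontal cortex, at least 131-fold higher, and *Irx5* had 4.95, 8.71 and 6.47 CPM against 1 count, a ratio of 297-fold (95% exact counting interval 52.8 to 11758). *Rora*, the ROR receptor that Purkinje cells need, and *Nfia*, a nuclear factor I gene, had log2 fold changes of 1.98 and 1.69. The smallest called one was that of *Nfix*, and *Gbx2* and *Lhx9* were not called at up to 0.162 and 1.21 CPM. *En1* (6.04, 0.459 and 0 CPM in the cerebellum) rested on the library with choroid plexus markers, and was at least 34.4-fold higher than in the prefrontal cortex, where it had 0 counts. It was not called without that cerebellum library (adjusted p = 0.18) or without any 1 of the prefrontal cortex libraries (adjusted p from 0.054 to 0.057).

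Of 27 forebrain factors, 21 were called lower in the cerebellum, 2 higher and 4 not, with a median of -4.01. *Nr2e1*, an orphan nuclear receptor, and *Emx2* had 0 counts in the cerebellum and were at least 319-fold and 113-fold higher in the prefrontal cortex. *Mef2c*, an activity-regulated factor, had 38.4, 38.6 and 31.4 CPM in the cerebellum and 641, 601 and 504 CPM in the prefrontal cortex (log2 fold change -4.01, SE 0.17, adjusted p = 7.6e-12). *Meis2* had 106, 97.6 and 269 CPM in the prefrontal cortex and was highest in the library with olfactory bulb markers. Its relative *Meis1* was higher in the cerebellum, with 80.0, 89.3 and 89.0 CPM in the cerebellum and 4.59, 3.12 and 23.0 CPM in the prefrontal cortex (log2 fold change 3.07, SE 0.48, adjusted p = 4.6e-05). *Zbtb18* (log2 fold change 2.12, SE 0.20, adjusted p = 1.8e-07) and *Id2* (log2 fold change 0.39, SE 0.14, adjusted p = 0.026) went against the list. *Id2* was not called without the cerebellum library 3 (0.35, adjusted p = 0.081) or the prefrontal cortex library 1 (0.39, adjusted p = 0.057) or 2 (0.30, adjusted p = 0.12). None of the 22 Hox genes passed the count filter, with at most 2 counts in any library of either region.

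Excitatory receptors of the regions differed by subunit within each family. Among 18 ionotropic glutamate receptor genes, 6 were called higher in the cerebellum and 8 lower. Without the prefrontal cortex library 3 these counts were 7 and 5, and without the cerebellum library 2 they were 5 and 5. The list's sums overlapped, between 2478 and 2673 CPM in the cerebellum and between 2421 and 2577 CPM in the prefrontal cortex. Of the NMDA receptor genes, *Grin2b* had 5.85, 6.42 and 8.33 CPM in the cerebellum and 223, 199 and 145 CPM in the prefrontal cortex (log2 fold change -4.79, SE 0.28, adjusted p = 4.6e-10). *Grin2c*, the subunit of mature granule cells, had the opposite pattern, with 175, 240.0 and 222 CPM in the cerebellum and 32.7, 34.9 and 48.1 CPM in the prefrontal cortex (log2 fold change 2.46, SE 0.23, adjusted p = 1.5e-07). *Grin1*, the obligatory subunit, was not called, with 198, 223 and 223 CPM in the cerebellum and 208, 226 and 195 CPM in the prefrontal cortex. Of the AMPA receptor genes, *Gria4*, which Bergmann glia and granule cells make, had 449, 459 and 458 CPM in the cerebellum and 132, 119 and 134 CPM in the prefrontal cortex (log2 fold change 1.83, SE 0.087, adjusted p = 3.8e-11). *Gria2* (log2 fold change -0.77, SE 0.085, adjusted p = 9.6e-07) and *Gria3* (log2 fold change -1.07, SE 0.13, adjusted p = 3.1e-06) were lower in the cerebellum and *Gria1* was called higher only without the prefrontal cortex library 3 (0.54, adjusted p = 0.018). *Grid1*, of the delta receptor family, was lower (log2 fold change -1.13, SE 0.16, adjusted p = 1.7e-05). Of the kainate receptor genes, *Grik2* was higher (log2 fold change 1.49, SE 0.093, adjusted p = 9.6e-10) and *Grik5* lower (log2 fold change -1.90, SE 0.14, adjusted p = 6.2e-09).

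The 7 metabotropic glutamate receptors tested were all called, 2 higher and 5 lower. *Grm5*, which couples to phospholipase C, had 4.82, 3.93 and 3.32 CPM in the cerebellum and 93.1, 72.3 and 99.5 CPM in the prefrontal cortex (log2 fold change -4.44, SE 0.25, adjusted p = 2.5e-10). Of the presynaptic receptors, *Grm4* had 316, 310.2 and 256 CPM in the cerebellum and 30.0, 29.8 and 34.1 CPM in the prefrontal cortex (log2 fold change 3.23, SE 0.18, adjusted p = 2.0e-10). *Grm7* was lower (log2 fold change -1.44, SE 0.12, adjusted p = 2.4e-08). *Grm3*, made by astrocytes as well as neurons, was lower (log2 fold change -1.51, SE 0.15, adjusted p = 3.5e-07).

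Of 15 GABA-A receptor subunits tested, 4 were called higher in the cerebellum, 9 lower and 2 not. The largest differences in both directions were those of alpha subunits. *Gabra6* is described above, and *Gabra5*, a subunit of extrasynaptic forebrain receptors, had 0.578, 0.393 and 0.971 CPM in the cerebellum and 103, 77.7 and 123 CPM in the prefrontal cortex (log2 fold change -7.31, SE 0.54, adjusted p = 7.5e-09). *Gabra3* (log2 fold change -3.18, SE 0.25, adjusted p = 1.7e-08) and *Gabra4* (log2 fold change -1.56, SE 0.14, adjusted p = 6.8e-08) were lower too. *Gabrd*, the delta subunit that pairs with alpha 6 in granule cells and with alpha 4 in the forebrain, had 365, 394 and 366 CPM in the cerebellum and 101, 137 and 105 CPM in the prefrontal cortex (log2 fold change 1.72, SE 0.17, adjusted p = 3.0e-07).

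Transport and synthesis genes of both transmitters were mixed, with 6 of 17 called higher, 5 lower and 6 not. *Gad1*, the GABA-synthesising enzyme, was not called and stood at 967, 768 and 819.7 CPM in the cerebellum and 425, 511 and 1081 CPM in the prefrontal cortex, highest in the prefrontal cortex library with olfactory bulb markers. Without that library it was called higher in the cerebellum (0.86, adjusted p = 4.0e-04). The astrocytic glutamate transporters differed in opposite directions: *Slc1a2*, GLT-1, had 224, 176 and 185 CPM in the cerebellum and 912, 969.6 and 708 CPM in the prefrontal cortex (log2 fold change -2.15, SE 0.15, adjusted p = 3.0e-09), against the opposite difference of *Slc1a3* above. *Glul*, glutamine synthetase, was lower in the cerebellum (log2 fold change -1.28, SE 0.22, adjusted p = 1.3e-04).

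Synapse organisers of the cerebellin family were split by region. *Cbln1*, which granule cells release at parallel fibre synapses, had 233, 362 and 342 CPM in the cerebellum and 5.20, 2.85 and 8.22 CPM in the prefrontal cortex (log2 fold change 5.84, SE 0.36, adjusted p = 8.6e-10), with *Cbln3* in the same direction. *Cbln4* (log2 fold change -5.67, SE 0.60, adjusted p = 5.8e-07) and *Cbln2* were lower in the cerebellum. Over the whole list, 8 of 24 members were called higher, 10 lower and 6 not. The pentraxins *Nptx1* and *Nptx2* went opposite ways, *Nptx2* with 0.835, 1.11 and 1.21 CPM in the cerebellum and 114, 52.6 and 57.0 CPM in the prefrontal cortex (log2 fold change -6.15, SE 0.51, adjusted p = 3.4e-08). *Lrrtm1*, a leucine-rich neurexin ligand, was lower (log2 fold change -3.18, SE 0.23, adjusted p = 4.9e-09), and *Lrrtm3* higher (log2 fold change 0.80, SE 0.12, adjusted p = 3.4e-05).

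Among 36 vesicle release genes, 9 were called higher, 15 lower and 12 not. Synaptotagmins, the calcium sensors of release, differed in opposite directions: *Syt2*, the fast sensor, had 172, 221 and 196 CPM in the cerebellum and 6.51, 26.3 and 12.6 CPM in the prefrontal cortex (log2 fold change 3.69, SE 0.39, adjusted p = 4.9e-07). *Syt1* had 523, 397 and 389 CPM in the cerebellum and 1137, 1338 and 1260.1 CPM in the prefrontal cortex (log2 fold change -1.51, SE 0.17, adjusted p = 1.5e-06). *Syt5* was lower (log2 fold change -5.19, SE 0.42, adjusted p = 2.1e-08) and *Syt9* higher (log2 fold change 2.72, SE 0.32, adjusted p = 2.0e-06). The syntaxin *Stx1a* was 229.6 times as abundant in the prefrontal cortex. *Unc13c*, a priming factor of granule cell terminals, was higher (log2 fold change 3.08, SE 0.19, adjusted p = 1.1e-09) and *Unc13b* lower (log2 fold change -1.57, SE 0.15, adjusted p = 2.6e-07). *Snap25*, of the fusion machinery, was not called, with 5814, 5240.1 and 5472 CPM in the cerebellum and 4714, 5402 and 4018 CPM in the prefrontal cortex.

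**Figure D4:**
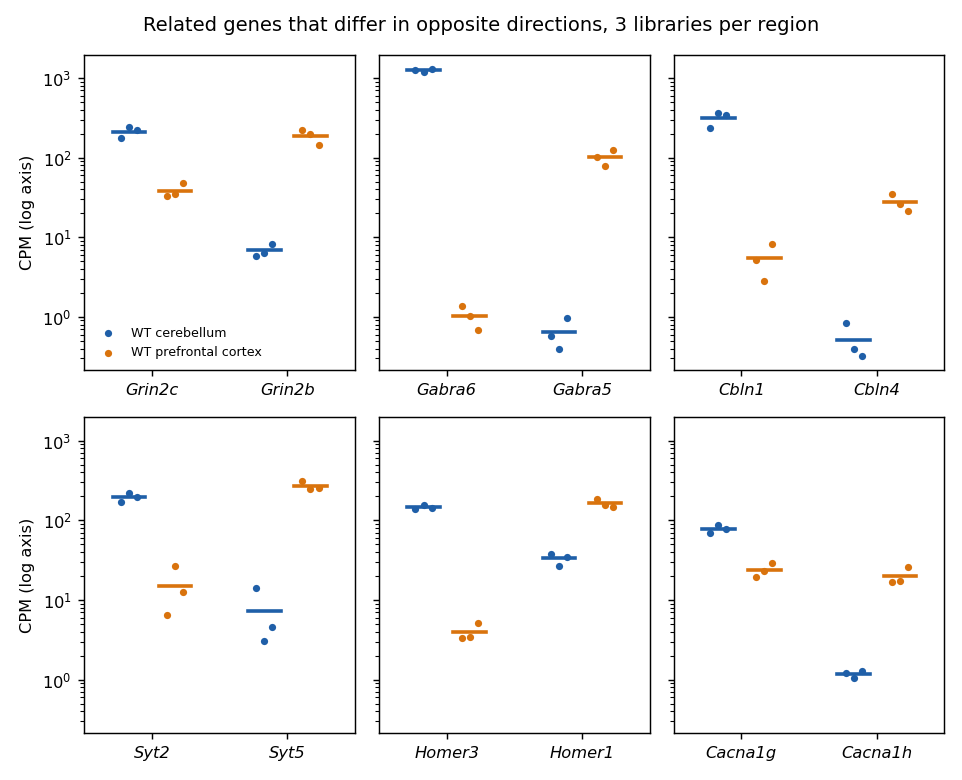
CPM of 6 pairs of related genes in each of the 6 WT libraries, on a log axis, with cerebellum libraries in blue and prefrontal cortex libraries in orange and a short line at each mean. In each pair one gene is higher in all 3 cerebellum libraries and its relative in all 3 prefrontal cortex libraries, as with *Grin2c* and *Grin2b* or *Homer3* and *Homer1*.

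Voltage-gated ion channels also differed by subunit. Of 36 voltage-gated potassium channel genes, 22 were called lower in the cerebellum, 9 higher and 5 not, with a median of -1.80. *Kcnc2*, a Kv3 subunit of fast-spiking cells, had 3.73, 2.95 and 1.78 CPM in the cerebellum and 65.2, 81.1 and 63.3 CPM in the prefrontal cortex (log2 fold change -4.61, SE 0.46, adjusted p = 2.8e-07). *Kcna1*, an axonal Kv1 subunit, had 425, 499 and 482 CPM in the cerebellum and 148, 266 and 164 CPM in the prefrontal cortex (log2 fold change 1.28, SE 0.16, adjusted p = 5.4e-06). *Kcnd2*, the A-type channel of granule cells, was higher (log2 fold change 2.06, SE 0.13, adjusted p = 1.5e-09). Among the lower genes were *Kcnq5* (log2 fold change -6.70, SE 0.31, adjusted p = 2.5e-11), of the M current, and *Kcnh3* (log2 fold change -6.81, SE 0.20, adjusted p = 1.9e-13), an ether-a-go-go channel with 204, 238 and 223 CPM in the prefrontal cortex and at most 2.12 CPM in the cerebellum. The silent subunits *Kcng4* and *Kcng1* also went opposite ways, at 4.30 and -7.83.

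Of 29 sodium, calcium and HCN channel genes, 9 were called higher, 12 lower and 8 not. *Cacna1a*, the P/Q-type calcium channel of Purkinje cells, had 136, 168 and 170.2 CPM in the cerebellum and 59.0, 53.1 and 39.2 CPM in the prefrontal cortex (log2 fold change 1.65, SE 0.16, adjusted p = 2.4e-07), and its accessory subunit *Cacna2d2* was also higher (log2 fold change 2.45, SE 0.14, adjusted p = 3.1e-10). The T-type channels *Cacna1g* and *Cacna1h* differed in opposite directions (1.71 and -4.06). *Cacna2d1* (log2 fold change -1.70, SE 0.10, adjusted p = 3.1e-10) and *Cacnb3* (log2 fold change -2.81, SE 0.10, adjusted p = 7.7e-13) were lower in the cerebellum. *Scn8a*, the sodium channel of axon initial segments, was not called (log2 fold change -0.14, SE 0.10, adjusted p = 0.25), and the early sodium channel *Scn3a* was lower (log2 fold change -4.37, SE 0.32, adjusted p = 6.7e-09).

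Genes of the route from metabotropic glutamate receptors to IP3 and calcium stores, which links parallel fibre input to calcium release in Purkinje cells, were more often higher than lower in the cerebellum. Of 42 genes, 22 were called higher, 13 lower and 7 not, with a median of 0.63. The list summed to between 8605 and 9009 CPM in the cerebellum and between 4162 and 4564 CPM in the prefrontal cortex. The phospholipase *Plcb4* had 515, 480.1 and 464 CPM in the cerebellum and 84.6, 131 and 96.2 CPM in the prefrontal cortex (log2 fold change 2.23, SE 0.22, adjusted p = 2.1e-07). *Plcb1*, which serves *Grm5* in the forebrain, was lower (log2 fold change -1.73, SE 0.12, adjusted p = 2.5e-09). *Itpr1* had 874, 840.2 and 823 CPM in the cerebellum and 217, 250.4 and 195 CPM in the prefrontal cortex (log2 fold change 1.94, SE 0.17, adjusted p = 6.4e-08). *Inpp5a*, the phosphatase that removes IP3, had 485, 478 and 465 CPM in the cerebellum and 67.4, 62.5 and 72.2 CPM in the prefrontal cortex (log2 fold change 2.82, SE 0.12, adjusted p = 1.5e-11). *Homer3*, the scaffold that couples such receptors to *Itpr1* in Purkinje cells, had 137, 157 and 145 CPM in the cerebellum and 3.29, 3.39 and 5.12 CPM in the prefrontal cortex (log2 fold change 5.21, SE 0.18, adjusted p = 7.7e-13), and *Homer1* (log2 fold change -2.29, SE 0.18, adjusted p = 1.2e-08) and *Homer2* (log2 fold change -2.71, SE 0.24, adjusted p = 7.6e-08) were lower. The cation channel genes *Trpc4* and *Trpc6* were lower (-2.49 and -2.76). The store pump *Atp2a3* had 263, 276 and 249.5 CPM in the cerebellum and 8.49, 8.96 and 15.1 CPM in the prefrontal cortex (log2 fold change 4.60, SE 0.26, adjusted p = 2.2e-10). The G protein subunits *Gnaq* and *Gna11* were lower by less, at -0.24 and -0.51, *Gnaq* with no call without the prefrontal cortex library 1 (-0.16, adjusted p = 0.064), and the ryanodine receptors *Ryr1*, *Ryr2* and *Ryr3* were not called.

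Calcium/calmodulin kinases and calcium-binding proteins were mostly lower in the cerebellum, 21 of 32, with 7 higher and 4 not called. *Camkv*, a pseudokinase, had 5.40, 5.83 and 5.10 CPM in the cerebellum and 669, 536 and 648 CPM in the prefrontal cortex (log2 fold change -6.82, SE 0.48, adjusted p = 4.5e-09). *Hpcal4* had 38.6, 39.8 and 45.0 CPM in the cerebellum and 1508, 1061 and 1162 CPM in the prefrontal cortex (log2 fold change -4.92, SE 0.25, adjusted p = 8.4e-11). *Hpcal1*, a related sensor, was higher (log2 fold change 3.03, SE 0.38, adjusted p = 4.4e-06), as was *Camk4*, a nuclear kinase of granule cells, with 467, 615 and 645 CPM in the cerebellum and 217, 178 and 149 CPM in the prefrontal cortex (log2 fold change 1.67, SE 0.19, adjusted p = 1.7e-06). *Pvalb*, parvalbumin, made by Purkinje cells and molecular layer interneurons, was 10.4 times as abundant in the cerebellum (log2 fold change 3.38, SE 0.48, adjusted p = 1.8e-05).

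Receptors for monoamines, acetylcholine, opioids and cannabinoids were mostly lower in the cerebellum: 30 of 39 were called lower, 4 higher and 5 not, with a median of -2.64. Serotonin receptors *Htr2a* and *Htr1a*, both made by pyramidal neurons, had 27.0, 28.1 and 17.5 CPM and 27.0, 16.7 and 15.1 CPM in the prefrontal cortex and at most 1.05 and 0.459 CPM in the cerebellum. *Adrb1*, a beta adrenergic receptor, was lower (log2 fold change -3.05, SE 0.19, adjusted p = 9.1e-10). *Drd1*, the D1 dopamine receptor, had 22.3, 13.1 and 45.4 CPM in the prefrontal cortex, highest in the library with striatal markers (log2 fold change -4.89, SE 0.63, adjusted p = 6.0e-06). *Cnr1*, the cannabinoid receptor of parallel fibres and cortical interneurons, was higher in the cerebellum, with 608, 562 and 716 CPM in the cerebellum and 207, 174 and 174 CPM in the prefrontal cortex (log2 fold change 1.76, SE 0.15, adjusted p = 3.5e-08). *Chrnb2*, a nicotinic subunit, and *Htr1b* were also higher (1.02 and 1.08).

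Of 22 neuropeptide and granin genes, 17 were called lower in the cerebellum, 1 higher and 4 not, with a median of -3.72. *Npy* had 17.7, 13.4 and 7.60 CPM in the cerebellum and 186, 189 and 179 CPM in the prefrontal cortex (log2 fold change -3.83, SE 0.26, adjusted p = 2.5e-09). *Cck* had 29.4, 56.5 and 36.9 CPM in the cerebellum and 483, 469 and 353 CPM in the prefrontal cortex (log2 fold change -3.41, SE 0.53, adjusted p = 4.4e-05). *Pdyn*, prodynorphin, had 0.321, 0.917 and 1.21 CPM in the cerebellum and 57.5, 50.3 and 67.6 CPM in the prefrontal cortex (log2 fold change -6.19, SE 0.50, adjusted p = 2.0e-08). *Penk*, proenkephalin, was not called and had 181, 172 and 149.8 CPM in the cerebellum and 110.3, 83.0 and 334 CPM in the prefrontal cortex, highest in the prefrontal cortex library with striatal markers. Its direction turned without that library (0.79, adjusted p = 0.15). *Trh* had 0 counts in the cerebellum and 1.16, 0.814 and 48.3 CPM in the prefrontal cortex, at least 243-fold higher and nearly all in the library with olfactory bulb markers. It was still called without that library (adjusted p = 0.022). *Chgb*, a granin, was higher in the cerebellum (log2 fold change 0.56, SE 0.11, adjusted p = 3.7e-04), and less so with the cerebellum library 1 and the prefrontal cortex library 3 left out (0.35, adjusted p = 0.013).

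Immediate early genes, which neuronal activity induces within minutes, were lower in the cerebellum in 14 of 23 and higher in none, but varied between prefrontal cortex libraries, where their sums were 1502, 2442 and 3377 CPM against 648, 970.2 and 960.0 CPM in the cerebellum. With the cerebellum library 1 and the prefrontal cortex library 3 left out, 10 were called lower and 2 higher. *Arc* had 24.7, 34.1 and 32.3 CPM in the cerebellum and 138, 718 and 876 CPM in the prefrontal cortex (log2 fold change -4.25, SE 0.69, adjusted p = 6.2e-05). *Egr3* had 1 count in the cerebellum against 26.7, 22.5 and 19.0 CPM, a ratio of 980.4-fold (95% exact counting interval 176 to 38763). *Fos* was not called, with 46.6, 94.7 and 105 CPM in the cerebellum and 25.1, 63.2 and 152 CPM in the prefrontal cortex. Of the induced genes, *Fos* and *Arc* were both highest in the prefrontal cortex library 3 and lowest in library 1, and the part of these libraries' differences in the list's count was not tested beyond leaving them out.

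Genes of the spinocerebellar ataxias, inherited disorders in which the cerebellum degenerates, went both ways. Of 36 tested, 16 were called higher, 7 lower and 13 not, with a median of 0.10, and 6 of the 16 also stand on the Purkinje cell or IP3 lists above. Among the largest differences were those of *Fat2* and *Inpp5a*. *Inpp5a* stands on this list, and among the 16 called higher, without being a gene of these inherited disorders. Lower in the cerebellum were *Pdyn*, *Ppp2r2b*, a phosphatase subunit (log2 fold change -1.90, SE 0.10, adjusted p = 1.5e-10), and *Atxn1* (log2 fold change -0.58, SE 0.12, adjusted p = 7.0e-04), while *Atxn2* and *Atxn7* were not called, with log2 fold changes of -0.09 and 0.20. *Tbp*, the TATA-binding protein gene that carries the expanded repeat in the KI mice of this series, had 60.9, 52.5 and 62.0 CPM in the cerebellum and 36.6, 33.5 and 42.1 CPM in the prefrontal cortex (log2 fold change 0.64, SE 0.11, adjusted p = 7.0e-05), 1.56 times as much in the cerebellum. Of 26 genes of TBP partners and SP transcription factors, 11 were called higher, 3 lower and 12 not, with 1 lower without the cerebellum library 1 or the prefrontal cortex library 2 and 0 without the prefrontal cortex library 1. In this list 53.8% of the genes were called in either direction, near the 52% of all tested genes. *Sp4* had 38.0, 35.9 and 38.1 CPM in the cerebellum and 13.6, 12.0 and 18.9 CPM in the prefrontal cortex (log2 fold change 1.33, SE 0.16, adjusted p = 3.0e-06). It alone passed the over 2-fold test (adjusted p = 0.049), and lost that call when any 1 library other than the prefrontal cortex library 3 was left out (adjusted p from 0.066 without the cerebellum library 2 to 0.23 without the prefrontal cortex library 2). *Sp1* had 15.4, 17.4 and 21.2 CPM in the cerebellum and 8.08, 8.96 and 9.44 CPM in the prefrontal cortex (log2 fold change 1.02, SE 0.16, adjusted p = 4.2e-05).

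Among non-neuronal cells, microglia, the resident immune cells, were lower in the cerebellum by every gene of their list. All 20 microglial genes were called over 2-fold lower in the cerebellum, with log2 fold changes between -3.24 and -1.54 and a median of -2.28. Their CPM summed to 246, 241 and 249.5 in the cerebellum and 1141, 1042 and 1070.3 in the prefrontal cortex. *Csf1r*, the growth factor receptor that microglia need, had 35.0, 30.3 and 31.6 CPM in the cerebellum and 149.7, 137 and 144 CPM in the prefrontal cortex (log2 fold change -2.15, SE 0.14, adjusted p = 2.4e-09). *Cx3cr1*, the fractalkine receptor, had 12.4, 14.6 and 11.4 CPM in the cerebellum and 78.5, 66.3 and 63.6 CPM in the prefrontal cortex (log2 fold change -2.44, SE 0.14, adjusted p = 2.6e-10). *C1qb*, of complement, had 18.6, 19.5 and 19.7 CPM in the cerebellum and 106, 97.9 and 91.7 CPM in the prefrontal cortex (log2 fold change -2.35, SE 0.17, adjusted p = 4.4e-09). A call over 2-fold lower was made for 9.37% of all tested genes.

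Astrocyte genes went both ways, 8 of 20 higher, 5 lower and 7 not called. *S100b* (log2 fold change 1.66, SE 0.17, adjusted p = 3.9e-07) and the water channel *Aqp4* (log2 fold change 1.21, SE 0.26, adjusted p = 8.3e-04) were higher in the cerebellum, *Slc1a2* and *Mfge8* (log2 fold change -1.59, SE 0.12, adjusted p = 1.6e-08) lower. *Gfap* was not called (log2 fold change -0.31, SE 0.29, adjusted p = 0.39). Of 20 oligodendrocyte genes, 16 were not called, among them *Mbp*, myelin basic protein, which had 4419.6, 3458 and 3939 CPM in the cerebellum and 2362, 6613 and 3882 CPM in the prefrontal cortex, highest and lowest both in the prefrontal cortex. The 4 that were called, *Olig1* (log2 fold change -1.17, SE 0.19, adjusted p = 7.0e-05), *Olig2* (log2 fold change -0.92, SE 0.25, adjusted p = 0.0056), *Pdgfra* (log2 fold change -1.42, SE 0.24, adjusted p = 9.2e-05) and *Cspg4* (log2 fold change -1.26, SE 0.31, adjusted p = 0.0028), were all lower in the cerebellum, and *Pdgfra* and *Cspg4* are known from oligodendrocyte precursors. Of 20 endothelial and pericyte genes, 6 were called lower and none higher, none over 2-fold, and of 14 genes of meninges and blood 1 was called. The choroid plexus list had 3 of 13 called higher, and 1 without the cerebellum library 1. Of 9 genes of brainstem nuclei tested, *Slc6a5* was higher and 3 were lower.

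By level per kilobase of exon, 2 of the 5 most abundant genes outside the mitochondrial genome, *Gm23935* and *Calm2*, were the same in both regions. *Calm2*, calmodulin, had 1853 against 2232 CPM per kilobase, cerebellum given first. The other 3 of the cerebellum were *Ckb*, the brain creatine kinase (1377 against 966 CPM per kilobase), *Aldoc* (1245 against 611 CPM per kilobase) and the noncoding *Malat1* (1197 against 931 CPM per kilobase). The other 3 of the prefrontal cortex were *Cpe*, a peptide-processing enzyme (475 against 1437 CPM per kilobase), *Apoe*, a lipid carrier of astrocytes (761 against 1323 CPM per kilobase), and *Cst3*, cystatin C (354 against 1318 CPM per kilobase). *Cpe* (log2 fold change -1.60, SE 0.094, adjusted p = 4.1e-10) and *Cst3* (log2 fold change -1.90, SE 0.10, adjusted p = 2.0e-10) passed the over 2-fold test. *Gm23935*, a gene model of 57 bases, had the highest value per kilobase, which a model so short makes uncertain, and its difference turned sign under a correction for GC content and length. Of 18 housekeeping genes, 12 were called lower in the cerebellum and only *Polr2a* higher, with a median of -0.39 and none over 2-fold. Without the cerebellum library 1 or the prefrontal cortex library 3, 2 were higher, and without the latter 1 was over 2-fold lower. The list served as a check on scaling. Its sums did not overlap, at 5105 to 5440 CPM in the cerebellum and 6581 to 6990 CPM in the prefrontal cortex. How far scaling lies behind this offset was not tested. Some called differences above, such as those of *Gnaq* and *Cux1*, are smaller in size than this list's median.

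Some genes were close to absence in one region. At 5 CPM or more in one region and at most 3 counts over the 3 libraries of the other, 48 genes were seen in the prefrontal cortex, 42 of them protein-coding, and 11 in the cerebellum, 10 of them protein-coding. Of the 48, 19 had 0 counts in the cerebellum, and of the 11, 2 had 0 counts in the prefrontal cortex. The level is a mean of 3 libraries, and some of the 48, such as *Trh* and *Sp8*, rest mainly on the prefrontal cortex library 3. These counts were not made without that library. The gene with the highest CPM of the cerebellar group was *Nrk*, a kinase, at 38.8, 45.1 and 49.9 CPM, named here after its values were seen. The level in WT striatum lay nearer that of the prefrontal cortex than that of the cerebellum, on log2(CPM + 1), for 753 (90.1%) of the 836 genes over 2-fold higher in the cerebellum and for 1173 (74.3%) of the 1578 genes over 2-fold lower. The same share over all tested genes was not computed. The prefrontal cortex level here includes library 3, which had more of the striatal markers. Genes called over 2-fold had a median exon length of 4.09 kilobases for the higher, 4.02 for the lower and 4.12 for all tested genes. Their median span from start to end was 27.0, 26.6 and 22.3 kilobases in the same order.

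The KI libraries, 4 of cerebellum and 3 of prefrontal cortex, were compared in the same way, as other samples of the same regions, although the spread was estimated over all libraries together and every cell of these mice carries mutant *Tbp*. Of the 836 genes over 2-fold higher in WT cerebellum, 835 had the same sign in KI mice and 817 (97.7%) were called in the same direction. Of the 1578 lower genes 1575 had the same sign and 1520 (96.3%) were called in the same direction. Over all tested genes, 87.1% had the same sign in both genotypes and 52.0% were called in KI mice in the direction of their WT sign. In KI mice 52.6% of all tested genes were called in either direction. The median difference of the higher genes was 2.38 in WT and 2.20 in KI mice, and that of the lower genes -2.81 and -2.44. Genes chosen by their WT values move towards 0 on average in other samples. Whether this or the genotype lies behind the medians nearer 0 in KI mice was not tested. The difference between regions differed itself between genotypes for 3 genes (0.0178%), *C1qa*, *Cd68* and *Fam163b*, all lower in the cerebellum and less so in KI mice. DESeq2 called 33 genes. *Fam163b* kept its call with any 1 WT library of either region left out. *C1qa* lost it without the cerebellum library 1 (adjusted p = 0.0505) or 2 (adjusted p = 0.070) or the prefrontal cortex library 1 (adjusted p = 0.053), and *Cd68* without the prefrontal cortex library 1 (adjusted p = 0.0503). With the cerebellum library 1 and the prefrontal cortex library 3 both left out *Fam163b* was the only gene called.

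**Figure D5:**
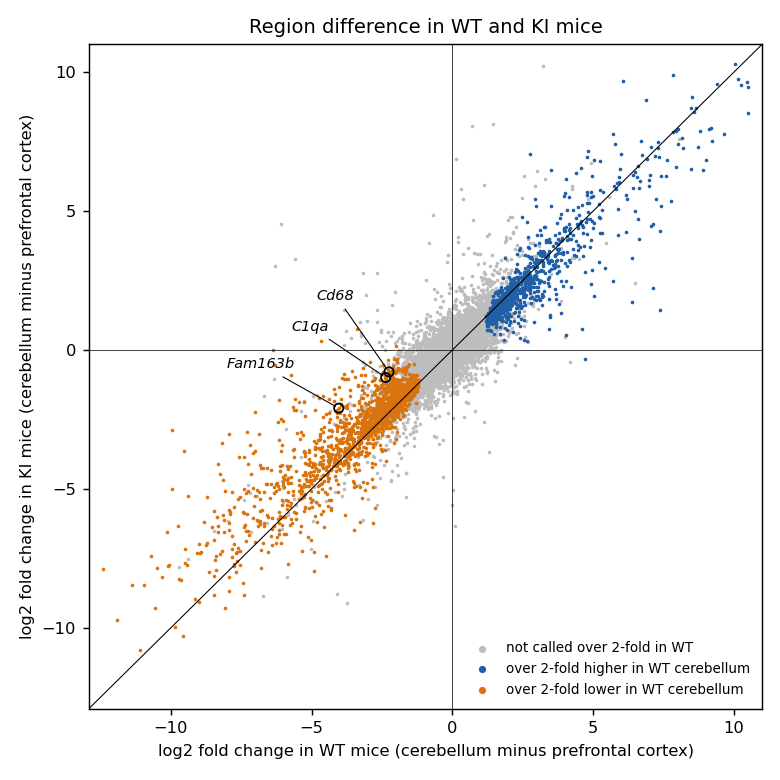
Log2 fold change between regions (cerebellum minus prefrontal cortex) in WT mice (x axis) and in *Tbp*-105Q KI mice (y axis) for the 16841 tested genes, with genes over 2-fold higher in WT cerebellum in blue, lower in orange, the rest in grey, and the diagonal of equal difference. Of the coloured genes 835 of 836 and 1575 of 1578 lie on the same side of 0 in both genotypes, against 87.1% of all tested genes. The 3 labelled genes differ between genotypes by the interaction test.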

How the data were processed

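RNA of bulk tissue was amplified with SMART-Seq v4 and made into Nextera XT libraries, which do not keep strand. Per the labels and the submitters' processing notes, the authors used bcl2fastq 2.17.1.14, STAR 2.5.2b, HTSeq and DESeq2 1.10.1 with GRCm38.p3. They deposited raw counts per gene, tested here, and normalized counts (a signal divided by DESeq2 size factors by the authors), used only as an alternative on log2(value + 1). The strand setting and annotation release are not given in the sources used here. Counts were fitted with edgeR 4.0.16 in R 4.3.3 (TMM scaling, filterByExpr over 6 groups, quasi-likelihood test, all 19 libraries, 13 residual degrees of freedom, Benjamini-Hochberg adjustment over 16841 of 41128 genes), with glmTreat for the over 2-fold test. DESeq2 1.42.0 and limma 3.58.1 served as alternatives. The fit was tested on simulated counts. Intervals and floors (3 counts over a group) cover counting error only. Libraries held 11975768 to 15296355 counts, and replicates differed by more than sampling noise (chi-square per degree of freedom 4.84 to 24.2).

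The members and lists were chosen with earlier results of these data known. Named genes are, for each direction, the 15 protein-coding genes with the largest called difference at 50 CPM or more without overlap, the 5 highest per kilobase in each region, and the extremes, exceptions and opposed relatives of each list. Some genes that this rule names are not reported here. Other list members given as examples were chosen after their values were seen. Promoters are from RefSeq and gene positions from GENCODE, both GRCm38.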

Additional observations from a re-analysis of the deposited data

Results flagged for a closer look

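For 3 genes the difference between cerebellum and prefrontal cortex was itself different in WT and KI mice by the interaction term of the edgeR fit. *C1qa*, a complement gene of microglia, had 7.13, 7.21 and 8.01 CPM in the cerebellum and 40.3, 36.0 and 39.0 CPM in the prefrontal cortex in WT mice and means of 18.1 and 36.0 CPM in KI mice, so that its log2 fold change was 1.38 nearer 0 in KI mice (SE 0.20, adjusted p = 0.012). *Cd68*, a lysosomal gene of microglia, had 2.83, 4.00 and 4.37 CPM in the cerebellum and 17.7, 16.1 and 19.3 CPM in the prefrontal cortex in WT mice and means of 8.39 and 14.5 CPM in KI mice, a difference of 1.46 (SE 0.20, adjusted p = 0.012). *Fam163b*, a gene of forebrain neurons, had 12.9, 10.0 and 11.1 CPM in the cerebellum and 175, 147 and 237 CPM in the prefrontal cortex in WT mice and means of 41.8 and 179 CPM in KI mice, a difference of 1.94 (SE 0.24, adjusted p = 0.0046). In these genes the KI cerebellum mean lay above the WT cerebellum values. At an unadjusted p under 0.05 the term was met by 1031 of 16841 genes. Where no gene differed, a share of 0.05 of the genes would still be expected there.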

How the results depend on the processing

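Of 66 counts over the gene lists, 1182 of 1254 values under the alternatives stayed within 1.5 times the reported count. Of the 186 genes named here that were called, 169 kept their call in every one of the 19 alternatives in which they were tested. Not every gene was tested in all of them. *Crtam*, near 0 in the prefrontal cortex, was left out where at least 10 counts were asked of each of the 6 libraries. With at least 10 counts asked of each of the 6 libraries, which leaves fewer genes to test, 532 genes were over 2-fold higher in the cerebellum and 894 lower. Leaving out 1 library at a time gave between 3691 and 4053 genes called higher, between 4021 and 4316 lower, between 723 and 889 over 2-fold higher and between 1416 and 1549 over 2-fold lower. The region difference that differed between genotypes was called for 33 genes by DESeq2, for between 1 and 4 when 1 library was left out, and for 1 with the cerebellum library 1 and the prefrontal cortex library 3 both left out, and the cause was not tested. The log2 fold change of *Gm23935* turned to 0.18 under the correction for GC content and exon length. Among genes not called, signs turned for *Penk*, to 0.21 and 0.11 with the replicate block, 0.077 under the GC correction, 0.19 on the authors' normalized counts, 0.74 with both libraries left out and between -0.41 and 0.79 with 1 left out. With 1 library left out the values ranged from -0.39 to 0.89 for *Fos*, from -0.02 to 0.089 for *Grin1*, from -0.41 to 0.33 for *Mbp*, from -1.24 to 0.63 for *Fabp7*, from -3.20 to 1.55 for *Th* and from -0.63 to 6.15 for *Ttr*. With both libraries that stood apart left out they were 0.90 for *Fabp7*, 0.52 for *Th* and -0.36 for *Ttr*. The replicate numbers were shared between regions, but libraries 1 and 3 of the regions differed in sex and so were not from the same mouse, and same-numbered libraries did not deviate together (correlations of -0.017, -0.050 and 0.031), and the replicate block gave 3407 genes higher and 3716 lower in the 6 WT libraries alone and 4232 and 4501 over all 19. Scaling by library totals gave 4874 higher and 4073 lower and moved the median of all genes by 0.07, and the GC correction gave 5078 and 3896 and moved it by 0.09. Genes near 0 counts in 1 region have fold changes limited by depth.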
